A study of Mus musculus with 62 samples.

Results

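The genes described here encode the proteins of the cytoplasmic ribosome, in mouse hearts sampled after injection of cachectic or non-cachectic melanoma cells or a mock injection. Members were taken by symbol: names of the form Rpl or Rps with a number and at most 1 closing letter a, x or y, and Rpsa, Rplp0, Rplp1 and Rplp2, with a mean of at least 1 TPM (transcript abundance per length, scaled to a fixed total per library) and without Rpl3. The rule found 75 genes among 47643 symbols, of which 30 belong to the small subunit, 42 to the large subunit and 3 to the stalk of the large subunit. All 75 matching symbols passed the minimum of 1 TPM. The lowest inside it were Rpl27 at a mean of 12.6 TPM, Rpl35a at 32.2 TPM and Rps18 at 32.9 TPM, and no matching symbol lay below it. All 75 also passed the filter on low values used for the tests.

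The series holds RNA sequencing of whole hearts from female mice aged 2 months, with the strain given as C57BL6/J in the labels and as NCI Ath/nude in the design text. The CAC animals received cachectic melanoma cells, the NCAC animals melanoma cells that are non-cachectic, and the Con animals were mock injected, and hearts were taken 2, 4, 6 or 8 weeks later. Cachexia is the loss of body mass, muscle above all, that can come with a tumour. Each of the 12 groups had 5 libraries except CAC at week 8 with 7. Con week 4 replicate 2 was left out of every fit and mean except the alternative with all 62 libraries, because mitochondrially encoded genes held 89.1% of its TPM. The 75 genes summed to 9365 TPM in it, and 61 of 62 libraries remain. CAC and NCAC animals carried different cells, so wasting and the injected cell line cannot be told apart. The labels call the samples biological replicates, and the p-values below rest on the spread between them. Defining genes of heart muscle were present: 14 cardiomyocyte markers summed to between 40900 and 63900 TPM in every library of week 8.

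A cytoplasmic ribosome is built from ribosomal RNA and these proteins, which are made in the cytoplasm and assembled with the RNA in the nucleolus. The small subunit reads the messenger RNA, the large subunit joins amino acids, and the stalk recruits the elongation factors. Most of these genes start transcription at a cytosine followed by a run of pyrimidines, the 5′ terminal oligopyrimidine (TOP) tract, through which translation of their mRNAs responds to mTOR signalling. In the heart the number of ribosomes is known as a limit on protein synthesis during growth.

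The genes were read with the start of transcription from RefSeq on GRCm38.p6, the assembly also called mm10, in which 56 of the 75 were found. A TOP-like start was scored when the first transcribed base was C and at least 4 bases after it were C or T, on the gene's own strand. It was found in 13 of 56 members (23.2%), against 813 of 27025 genes in the promoter table (3.01%) and 0 of 68 mitochondrial ribosomal protein genes. Starts differ between annotations by a few bases, and no match says only that these letters are not at this position. Of the 13, 5 are shown as windows of 30 bases, with the 15 bases before the start in lower case and the tract in capitals.
Rps6, chr4:86857353-86857382, minus strand: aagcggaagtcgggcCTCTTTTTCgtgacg
Rps27, chr3:90213634-90213663, minus strand: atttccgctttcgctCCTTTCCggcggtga
Rps18, chr17:33955651-33955680, minus strand: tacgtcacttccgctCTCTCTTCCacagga
Rpl15, chr14:18270972-18271001, minus strand: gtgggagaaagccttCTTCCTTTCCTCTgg
Rplp2, chr7:141447636-141447665, plus strand: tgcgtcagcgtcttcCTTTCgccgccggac
These were chosen because values of their genes are given below, with 2 small subunit genes of large change, 1 of smaller change, a large subunit gene at the low end and a stalk gene. The tract was 5 bases long in Rplp2 and 13 in Rpl15.

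In CAC hearts the transcripts of nearly all ribosomal protein genes rose together at weeks 6 and 8, in both subunits and the stalk. Fewer of them were called higher at week 4, where the counts rested on few libraries. Against Con, the rescaling described below left a week 4 count near the share of all tested genes. The 75 genes held a median of 1.80% of TPM in Con at week 2 and 1.57% at week 8, and 1.90% in CAC at week 2, 2.04% at week 4, 2.53% at week 6 and 2.52% at week 8. The group median of the summed TPM in CAC was 1.05, 1.15, 1.52 and 1.60 times that of Con at weeks 2, 4, 6 and 8, and 1.07, 1.15, 1.47 and 1.39 times that of NCAC. NCAC hearts lay between 1.60% and 1.95% at all 4 weeks. In whole hearts a change in the cells present and a change within a cell cannot be told apart. TPM is also a share of each library, so the same transcripts were read without mitochondrially encoded genes, which held 50.1 to 55.7% of TPM in CAC at week 8 and 52.9 to 61.1% in Con. On that scale the medians were 4.17% in Con and 4.23% in CAC at week 2, and 3.82% in Con, 4.15% in NCAC and 5.27% in CAC at week 8.

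**Figure D1:**
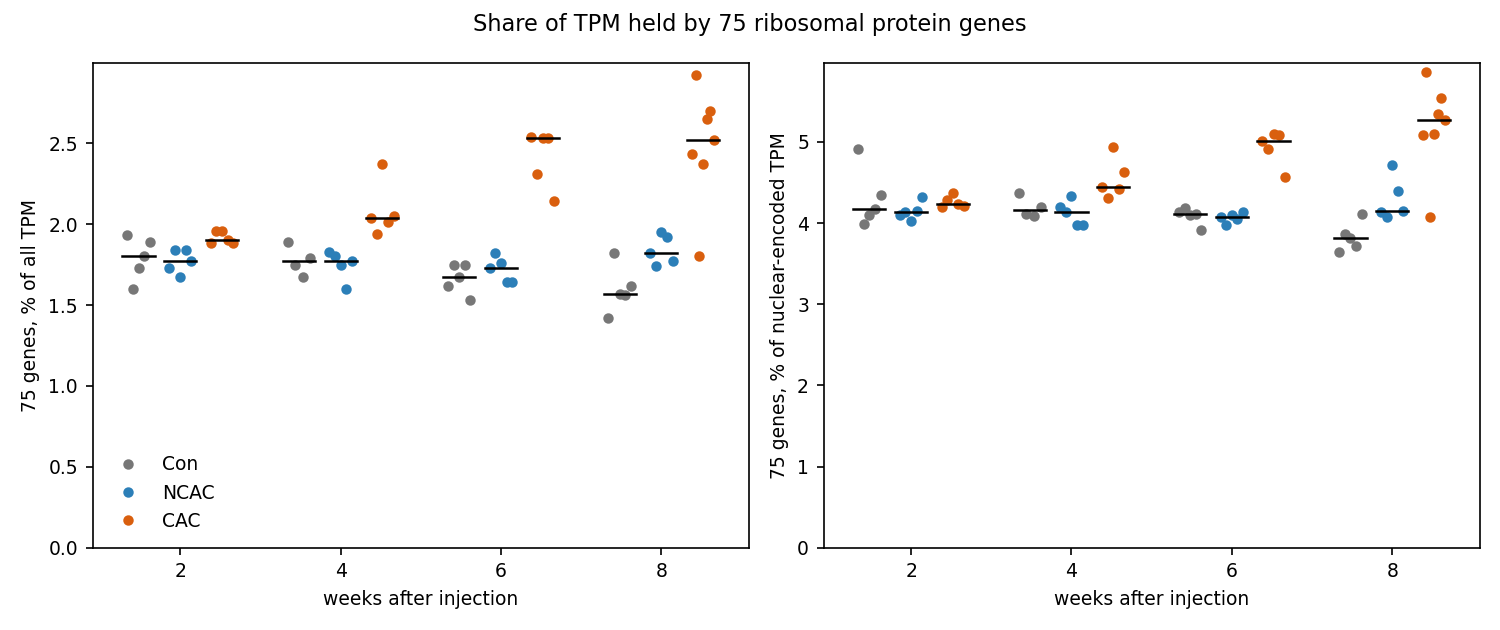
Share of TPM held by the 75 genes in each library (points) by week and arm, of all TPM (left panel) and of TPM without mitochondrially encoded genes (right panel), both in percent with the axis from 0 and black bars at the group medians. In the left panel the CAC points lie above both other arms from week 4, except replicate 3 at week 8, which stands at 1.80%, and in the right panel the arms still overlap at week 4.

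The libraries of CAC at week 8 were not alike. Summed over the 75 genes, 6 of the 7 lay between 23723 and 29239 TPM, and replicate 3 lay at 18047 TPM. In Con at week 8, 4 libraries lay between 14155 and 16205 TPM and replicate 2 at 18209 TPM, with the lowest mitochondrially encoded share of its group at 52.9%. Replicate 3 of CAC had 38 of the 75 genes above all 5 Con libraries, and the other 6 CAC libraries had 72 to 74. Con replicate 2 itself had 73 of the 75 above the other 4 Con libraries. Such counts of single libraries were not taken over all tested genes. Replicate 3 of CAC also held 33000 TPM in 7 erythroid marker genes, haemoglobins among them, where the other 6 held 166 to 6630 TPM and the Con libraries 1780 to 4560 TPM. The part of this in its low members was not tested. Without it limma still called 74 members higher in CAC than in Con at week 8, with a median log2 fold change of 0.71.

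The comparison of CAC with Con asked which genes differ between hearts of CAC animals and of mock-injected ones of the same week. At week 2 limma called 0 of the 75 genes, where 1.83% of 12541 tested genes were called higher. At an unadjusted p under 0.05 there were 11. Counts at an unadjusted p, here and below, come without their share over all tested genes. They cannot be set against the shares called. At week 4 it called 28 higher and 0 lower, against 12.7% of all tested genes higher. At week 6 it called 74 higher, against 50.5%, and at week 8 again 74 higher, against 50.8%. The gene not called was Rps26 both times. Median log2 fold changes of the 75 genes were 0.10, 0.23, 0.53 and 0.64 at weeks 2, 4, 6 and 8, beside 0.10, 0.09, 0.21 and 0.19 over all tested genes.

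As so many of all genes were called higher at weeks 6 and 8, the values were also rescaled by medians of ratios, which sets the median of all genes near 0. After rescaling, limma called 0 members at week 2, 6 at week 4, 68 at week 6 and 70 at week 8, all higher. Of all tested genes, 0.407, 8.52, 19.4 and 25.9% were then called higher, and 25.8% were called lower at week 8. As deposited, 6368 genes had been called higher and 1251 lower at week 8. The rescaled medians of the members were -0.01, 0.12, 0.29 and 0.41. As deposited, at week 4 Rpl12 rose by 0.39 (limma adjusted p = 0.00202), and at week 6 Rps12, Rpl12 and Rpl39 rose most, by 0.84, 0.77 and 0.72, while Rps2 and Rpl15 were among the called members that rose least, by 0.28 and 0.38. The count at week 4 rests on few libraries: without CAC replicate 2 it was 1 in place of 28, without Con replicate 4 it was 2, without Con replicate 5 it was 12 and without Con replicate 3 it was 13.

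**Figure D2:**
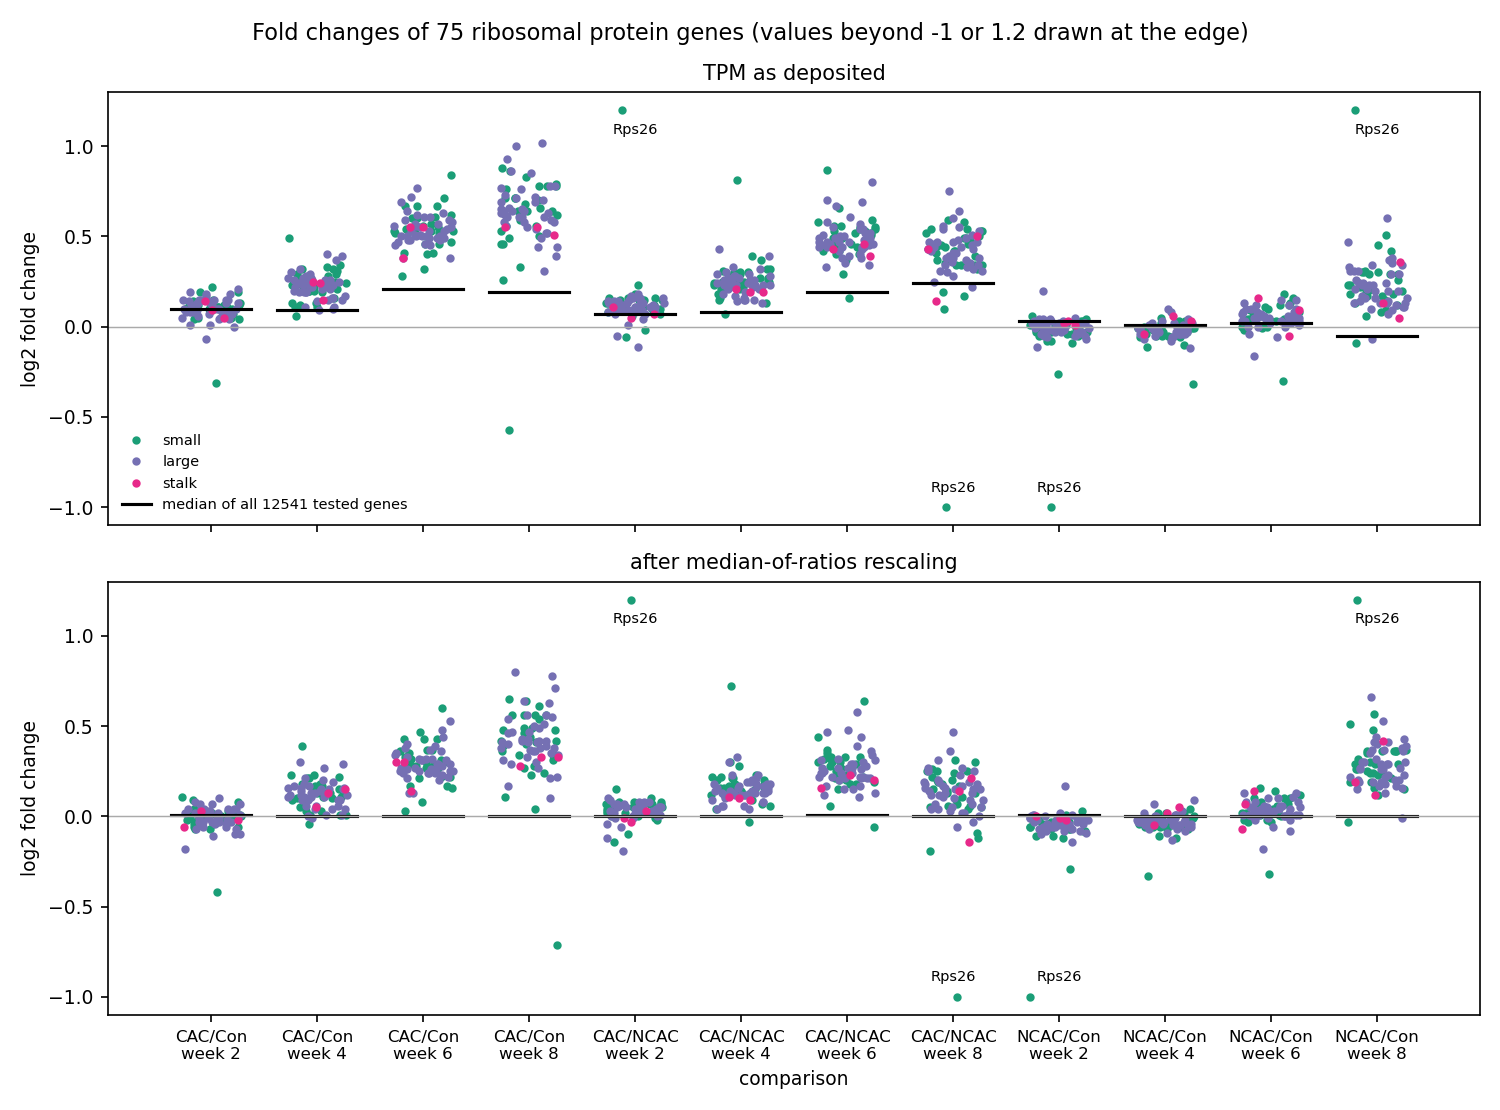
Log2 fold change of each of the 75 genes (points, coloured by subunit) in the 12 comparisons, from TPM as deposited (upper panel) and after median-of-ratios rescaling (lower panel), with black bars at the median of all 12541 tested genes. The points of CAC against Con lie near the bar at week 2 and above it at weeks 6 and 8, and the NCAC against Con points leave it at week 8.

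Within the small subunit, 29 of 30 genes were called higher in CAC than in Con at week 8, with a median of 0.64, where 50.8% of all tested genes were called higher with a median of 0.19. Rps27, a zinc finger protein of this subunit, was highest, with 197, 305 and 355 TPM as lowest, median and highest in CAC and 146, 148, 152, 168 and 176 TPM in Con. The CAC and Con libraries did not overlap, with 0.88 ± 0.09 (SE) as the log2 fold change and a limma adjusted p of 1.22e-11. A copy of Rps27 with identical coding bases is described below. Rps19, whose human counterpart is mutated in Diamond-Blackfan anaemia, measured 64.6 ± 9.61 TPM (SD, n = 7) against 37.5 ± 4.27 TPM (SD, n = 5), which is 0.76 higher on the log2 scale with a limma adjusted p of 8.72e-12. Rps6, the substrate of the S6 kinases, ranged from 256 to 404 TPM in CAC and from 217 to 268 TPM in Con, and 6 of the 7 in CAC exceeded every Con library. Its log2 fold change was smaller at 0.53, and its limma adjusted p was 2.26e-09. Rpsa, also known as the laminin receptor precursor, stood at 490 ± 55.5 TPM against 356 ± 31.8 TPM, 0.46 higher on the log2 scale with a limma adjusted p of 1.16e-04. Rps4x, encoded on the X chromosome, and Rps27a, made as a fusion with ubiquitin, changed by 0.71 and 0.78, and Rps18 by 0.86.

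All 42 large subunit genes were called higher, against the same 50.8% of all tested genes, with a median of 0.63. Rpl30 was listed at 37.8, 38.3, 40.0, 50.8 and 58.0 TPM in Con and at 59.2, 91.1 and 131 TPM as lowest, median and highest in CAC. All CAC libraries lay above all of Con, and its log2 fold change was the largest at 1.02 ± 0.21 (SE), with a limma adjusted p of 3.42e-05. It is also the second most variable member, with a pooled SD of 0.36 within groups on the log2 scale, where the median member has 0.13. Rpl39, a short protein that lines the exit tunnel of the ribosome, stood at 65.9, 69.2, 76.2, 80.6 and 84.5 TPM in Con and at 97.6, 164 and 203 TPM as lowest, median and highest in CAC. No libraries overlapped between the groups, and limma gave 1.00 ± 0.09 (SE) as the log2 fold change with an adjusted p of 6.77e-13. Rpl12, at the base of the stalk, was apart too, at 81.9 to 152 TPM in CAC and 57.7 to 70.2 TPM in Con, differing by 0.93 ± 0.08 (SE) on the log2 scale with a limma adjusted p of 4.84e-14. Rpl10, which joins the subunit late in its assembly, changed by 0.86, and Rpl13a, also a part of an interferon-activated translation inhibitor complex, by 0.85. Rpl5 and Rpl11, which form a particle with 5S ribosomal RNA that binds Mdm2, changed by 0.65 and 0.55. Rpl41, the shortest of the members at 138 coding bases, changed by 0.71.

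The 3 stalk genes were called as well. Rplp0 measured 432 to 829 TPM in CAC and 368 to 519 TPM in Con, and 6 of the 7 in CAC exceeded every Con library, with 0.55 as the log2 fold change and a limma adjusted p of 2.48e-07. Rplp1, the most abundant member per length at a mean of 1070 TPM, also changed by 0.55, and Rplp2 by 0.51. The 3 genes lie below the median of either subunit, and the difference between the classes was not tested.

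At the low end were Rpl15 at 0.44, Rpl29 at 0.39, Rps12 at 0.33, Rpl27 at 0.31, Rps2 at 0.26 and Rps26 at -0.57. Rps12 was called with a limma adjusted p of 0.0493, and after rescaling Rps12, Rpl27 and Rps2 were no longer called, at 0.11, 0.10 and 0.04. Across the 74 members without Rps26 the log2 fold change had a Spearman's rho of -0.27 with coding length and -0.11 with mean TPM. It was -0.12 with the number of copies in the annotation, counted by shared sequence as described below. These values are given as a description of genes that share libraries.

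**Figure D3:**
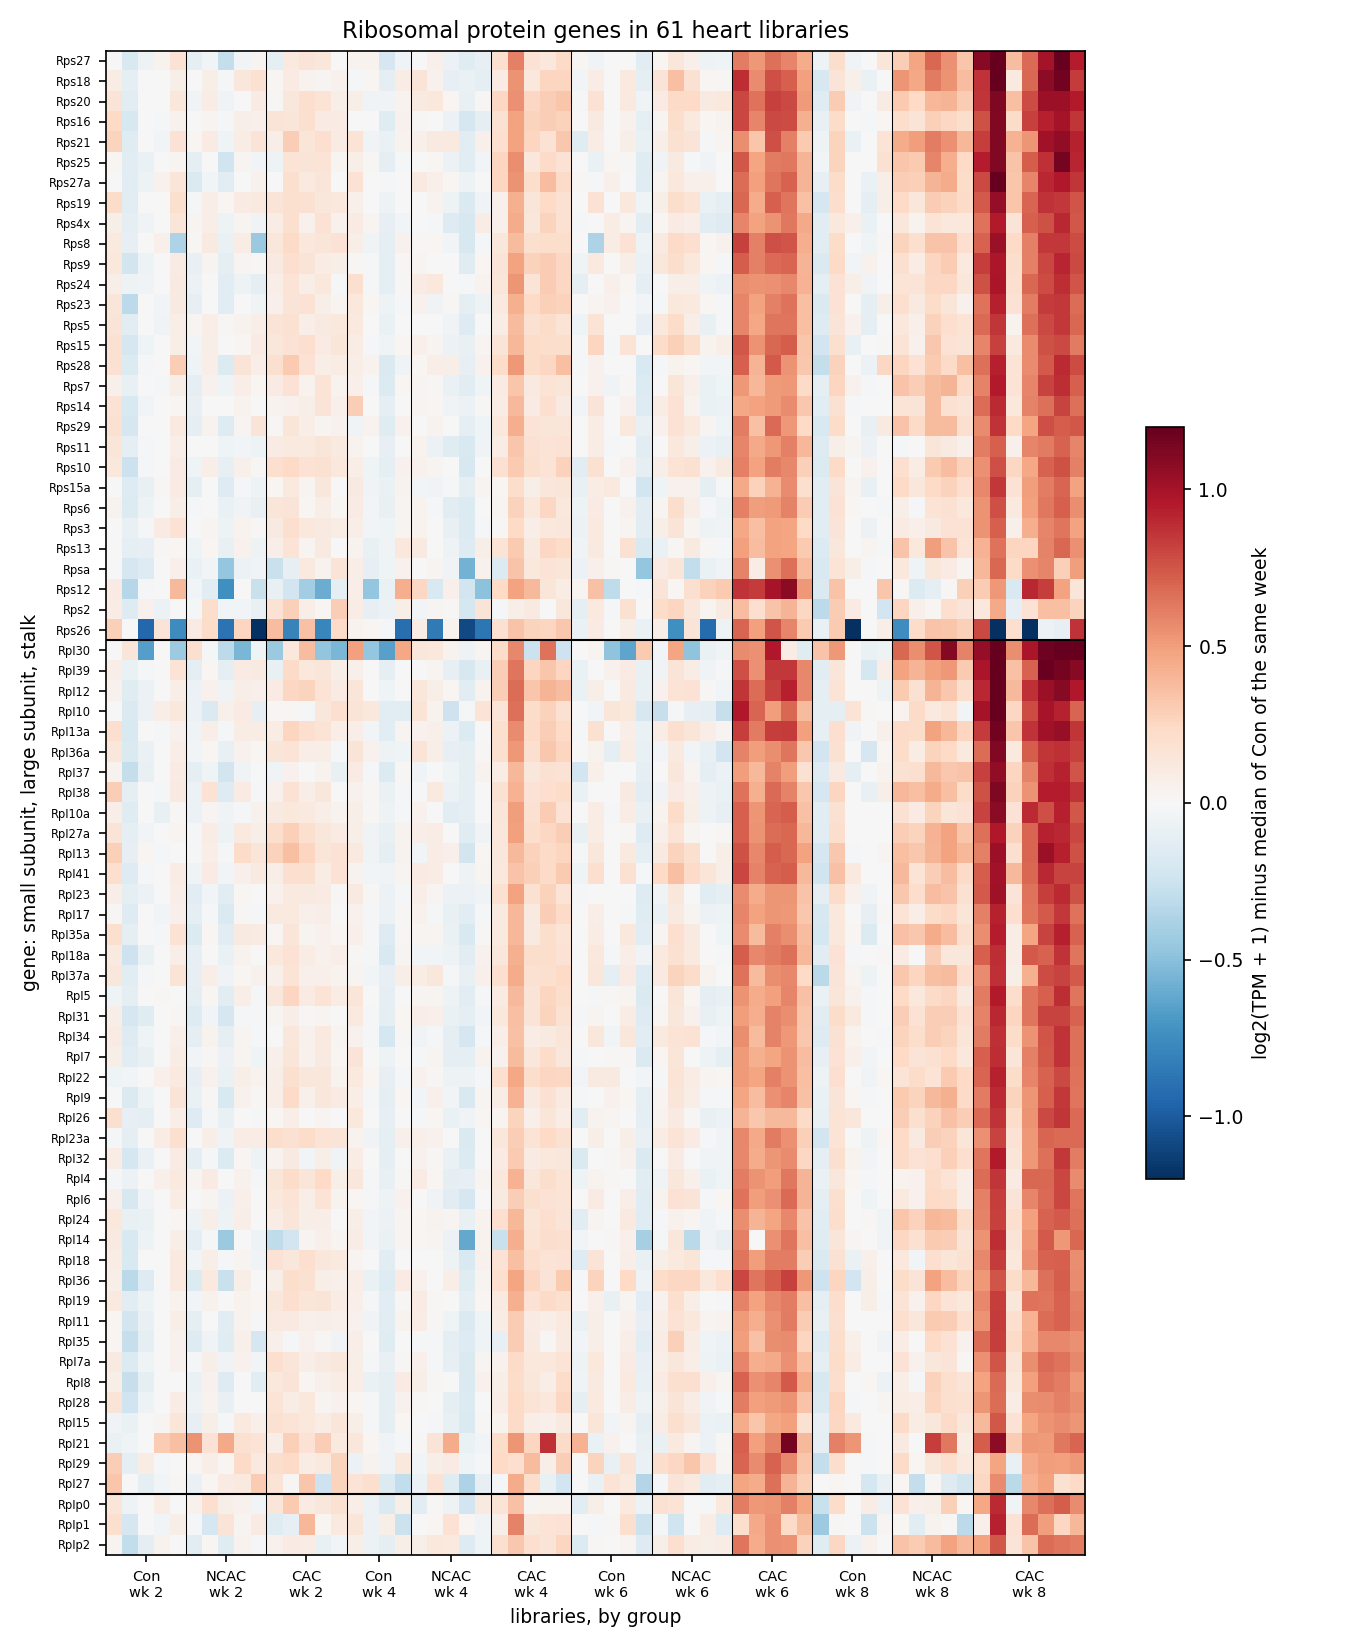
Of the 75 genes, 74 (rows, ordered within subunit by the log2 fold change of CAC against Con at week 8) in each of the 61 libraries (columns, in groups), as log2(TPM + 1) minus the median of the Con libraries of the same week, with colours limited to ±1.2. Red fills the CAC columns of weeks 6 and 8 in nearly every row, replicate 3 of CAC week 8 is pale, and the row of Rps26 changes from library to library.

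Every CAC library lay above every Con library for 4 genes at week 2, 47 at week 4, 72 at week 6 and 38 at week 8. The same was true of 7.63, 15.1, 36 and 9.78% of all tested genes. Without CAC replicate 3, 71 of the 75 genes were apart at week 8, against 31.9% of all tested genes. Read by name over time, Rpl12 had medians of 71.7, 69.0, 66.9 and 62.4 TPM in Con at weeks 2, 4, 6 and 8 and of 80.7, 89.5, 119 and 122 TPM in CAC. Its neighbouring CAC groups at weeks 6 and 8 overlap, at 100 to 129 and 81.9 to 152 TPM. Rps6 had medians of 258, 256, 240 and 237 TPM in Con and of 272, 280, 343 and 348 TPM in CAC.

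The change between weeks was tested as a difference of the CAC against Con effects. From week 2 to week 8 the effect grew for 70 of the 75 genes, against 19.1% of all tested genes, with a median difference of 0.54 beside 0.10 over all genes. After rescaling 68 grew, against 15.2%. Rpl30 grew by 1.03 ± 0.30 (SE; limma adjusted p = 0.00909), Rpl39 by 0.94 and Rps18 by 0.82 on the log2 scale. Rpl27 and Rps2, at 0.25 and 0.07, were not called. From week 6 to week 8 limma called 0 of the 75, and 0.00797% of all tested genes were called higher. The median difference was 0.13, with Rpl30 at 0.47 and Rps12 at -0.51. An unadjusted p under 0.05 was found for 6 members, without the all-gene share at that p. Without CAC week 8 replicate 3 limma called 1.

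The comparison of CAC with NCAC sets the arm given cachectic cells against animals that also received melanoma cells. Again 0 members were called at week 2, where 0.582% of all tested genes were called higher. An unadjusted p under 0.05 was found for 8 members, without the all-gene share at that p. At week 4 limma called 44 higher, against 13.7%, at week 6 it called 72, against 47.7%, and at week 8 it called 71, against 57.4%. Median log2 fold changes were 0.11, 0.24, 0.47 and 0.43, beside 0.07, 0.08, 0.19 and 0.24 over all genes. At week 4 Rps26 was highest at 0.81 and not called (limma adjusted p = 0.702), and Rpl39 rose by 0.43 (limma adjusted p = 0.00223). Without CAC replicate 2 the count of week 4 was 8, without NCAC replicate 4 it was 18, and without NCAC replicate 3 it was 27.

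Rescaling changed this comparison at each week with calls. At week 8 it left 35 members called higher, against 25.2% of all tested genes, and 2 called lower, against 26.1%, with a median of 0.14. Those lower were Rps2 at -0.19 (limma adjusted p = 0.00686) and Rplp2 at -0.14 (limma adjusted p = 0.0439), which as deposited stood at 0.10 and 0.14 and were not called. At week 6 the rescaled fit called 65 higher, against 20.7%, and at week 4 it called 18, against 9.82%. Rpl10 led at week 8, with 49.4 ± 11.1 TPM (SD, n = 7) in CAC and 28.4 ± 2.11 TPM (SD, n = 5) in NCAC. All CAC libraries lay above all NCAC libraries, and it rose by 0.75 as deposited (limma adjusted p = 2.38e-08) and by 0.47 rescaled. A copy with identical coding bases, described below, holds most of their joint level, and summed with it Rpl10 had 0.57, or 0.29 rescaled. Rpl12 followed at 0.64, Rpl10a at 0.60, Rps16 at 0.59, Rps4x at 0.58 and Rpl13a at 0.56, and all of them were still called after rescaling. Rplp0, Rplp1, Rpsa and Rpl11 were called as deposited, at 0.43, 0.50, 0.39 and 0.34, and not after rescaling, at 0.14, 0.21, 0.11 and 0.05. Every CAC library lay above every NCAC library for 21 members at week 2, 54 at week 4, 67 at week 6 and 5 at week 8, against 4.71, 11.7, 30.3 and 14.8% of all tested genes, and without CAC replicate 3 the count of week 8 was 63, against 41%. The difference between weeks 8 and 6 was called for 0 of 75 members, where 0% of all tested genes were called higher. An unadjusted p under 0.05 was found for 3 members, again without the all-gene share.

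In NCAC animals, some of these genes were called higher than in mock-injected animals at week 8, and none passed the threshold at earlier weeks. In the comparison of NCAC with Con limma called 0 members at weeks 2, 4 and 6, where 0% of all tested genes were called higher, with 0, 0 and 1 at an unadjusted p under 0.05. At week 8 it called 13 higher and 0 lower, against 0.486% of all tested genes higher. At an unadjusted p under 0.05 there were 49, without the all-gene share at that p, so not to be set against 0.486%. The median of the members was 0.21, beside -0.05 over all genes. After rescaling 56 were called higher, against 4.3%. Rps18 rose by 0.51 (limma adjusted p = 0.0106), with 34.1 ± 2.36 TPM (SD, n = 5) in NCAC and 23.6 ± 2.24 TPM (SD, n = 5) in Con. Summed with its copies it stood at 0.31 and was not called (limma adjusted p = 0.0826). Rpl30 stood at 0.60 with a limma adjusted p of 0.185. Every NCAC library lay above every Con library for 0, 0, 1 and 18 members at weeks 2, 4, 6 and 8, against 0.662, 0.207, 0.423 and 0.63% of all tested genes.

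The 13 calls rest on single libraries. Without Con replicates 1, 3, 4 or 5 they numbered 4, 6, 8 and 5, without NCAC replicates 1, 3 or 4 they numbered 8, 5 and 3, and without Con replicate 2 or NCAC replicate 5 they numbered 30 and 22. A fit on these 2 groups alone called 1. Con at week 8 had the lowest median of the 75 genes among the 12 groups, 15728 TPM, beside 18212 TPM in NCAC of the same week and 18005 TPM in Con at week 2. The CAC against Con and NCAC against Con comparisons share these Con libraries.

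Rps26, a protein of the mRNA exit channel, was the most variable member, with a pooled SD within groups of 2.06 on the log2 scale. It showed 3 patterns over the 61 libraries. In 43 libraries Rps26 stood at 258 to 502 TPM and its processed copy Rps26-ps1 at 0.453 TPM or less. In 14 libraries Rps26 stood at 148 to 263 TPM and the copy held 52.7 to 56.5% of their sum. In 4 libraries Rps26 stood at 0.293 TPM or less and the copy at 360 to 656 TPM. The 3 patterns were found in 16, 4 and 2 libraries of CAC, 12, 7 and 1 of NCAC and 15, 3 and 1 of Con.

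Rps26 lies at chr10:128624534-128626747 on the minus strand with 4 exons, and Rps26-ps1 at chr8:107439131-107439579 on the minus strand, annotated as a transcribed processed pseudogene (mm10, GENCODE M21). Over 345 coding bases the copy differs from Rps26 at C30T and G270A, with Rps26's base first and positions counted from 1 at the start codon. The first 60 coding bases are shown because they hold the first difference, in capitals.
Rps26: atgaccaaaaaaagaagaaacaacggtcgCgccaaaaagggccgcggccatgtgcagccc
Rps26-ps1: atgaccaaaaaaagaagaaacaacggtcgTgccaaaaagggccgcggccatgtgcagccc
How the authors assigned reads that match both is not given in the sources used here. In CAC at week 8 Rps26 was listed at 0, 0.106, 257, 263, 316, 476 and 502 TPM, and in Con at 0.293, 258, 275, 291 and 341 TPM. Summed with the copy, the values were 524 ± 109 TPM (SD, n = 7) in CAC, 345 ± 20.2 TPM (SD, n = 5) in NCAC and 305 ± 43.7 TPM (SD, n = 5) in Con. For the sum the log2 fold change was 0.76 for CAC against Con, with a limma adjusted p of 5.31e-09, and 0.57 for CAC against NCAC, with 1.90e-06, where Rps26 alone had -0.57 and -2.14 and was not called.

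**Figure D4:**
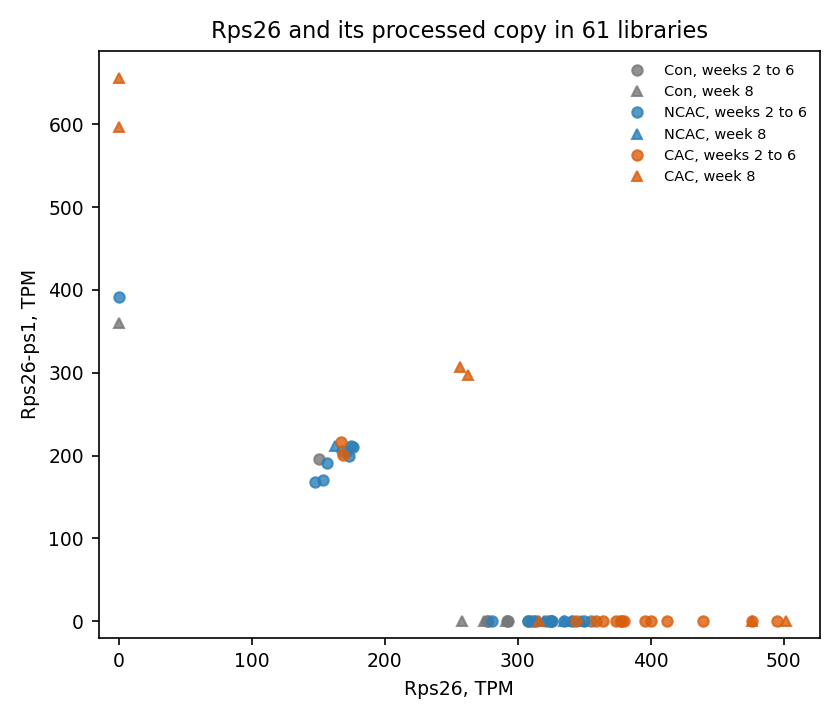
TPM of Rps26 (horizontal) and of its processed copy Rps26-ps1 (vertical) in each of the 61 libraries, coloured by arm, with triangles for week 8. The points fall into 3 sets: 43 libraries along the horizontal axis, 14 in the middle and 4 on the vertical axis.

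Other members share sequence with copies too. Of the 75 genes, 72 have at least 1 copy in the annotation that shares at least 20% of their coding 31-base words, 647 copies in all. Of the 521 copies listed as rows, 490 were below 0.1 TPM and 20 reached 1 TPM, for 17 members. In 5 members a copy exceeded its parent: Rpl10 at a mean of 33.1 TPM beside Rpl10-ps3 at 637 TPM, Rpl27 at 12.6 beside Rpl27-ps3 at 421, Rps18 at 32.9 beside Gm10260 at 310 and Rps18-ps3 at 79.6, Rps12 at 248 beside Rps12-ps3 at 376, and Rps2 at 126 beside Gm6311 at 386. Levels of these members are uncertain, and the coding bases of Rpl10 and of Rpl27 are identical to those of their copy. Rps27 also has a copy with identical coding bases, Rps27rt, at a mean of 53.3 TPM beside 221 TPM, so its level is uncertain too. Summed with it, Rps27 had 0.38 in place of 0.31 for CAC against Con at week 4. Summed with their copies at week 8, Rps12 had a log2 fold change of 0.77 for CAC against Con in place of 0.33, Rpl27 0.58 in place of 0.31, Rpl10 0.77 in place of 0.86, Rps18 0.76 in place of 0.86, and Rps2 0.11 in place of 0.26, no longer called (limma adjusted p = 0.128).

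Rpl3, kept out of the rule, and Rpl3l, the form of the same protein made in heart and skeletal muscle, went opposite ways at week 8. Rpl3 had medians of 43.3, 45.5, 41.1 and 43.8 TPM in Con at weeks 2, 4, 6 and 8 and of 47.0, 56.8, 78.0 and 92.1 TPM in CAC. Rpl3l had medians of 268, 262, 238 and 247 TPM in Con and of 280, 234, 238 and 188 TPM in CAC. At week 8, on the log2 scale, Rpl3 rose by 1.04 (limma adjusted p = 2.64e-11) and Rpl3l fell by 0.39 (limma adjusted p = 1.68e-05), and both were called the same way after rescaling. Of 10 measured further ribosomal protein genes outside the rule, these included, 7 were called higher and 1 lower at week 8, among them Rpl36al at 0.51 and Rps27l at 0.49.

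Other genes of the translation machinery were read from lists, beside 50.8% of all tested genes called higher in this comparison, or 25.9% higher and 25.8% lower after rescaling. Of 18 measured genes with TOP mRNAs that are not ribosomal proteins, 16 were called higher in CAC than Con at week 8 and 0 lower, with a median of 0.48 (15 higher and 2 lower after rescaling, 0.26). The elongation factor gene Eef1a1 stood at 927 against 477 TPM, the initiation factor gene Eif3h at 298 against 162 TPM and Btf3 at 143 against 89.6 TPM. Of 39 ribosome biogenesis genes, 35 were called higher and 0 lower (21 and 2 after rescaling), among them the nucleolar genes Npm1 at 0.63 and Gnl3 at 0.70 and the assembly factor Sbds at 0.52. Of 21 subunits and factors of RNA polymerases I and III, 14 were called higher and 0 lower (6 and 3 after rescaling), among them Taf1d at 0.68. Of 37 genes of translation initiation and its control, 26 were called higher and 1 lower (12 and 7 after rescaling), with a median of 0.27 before and 0.05 after rescaling. The rescaled shares of these and of the polymerase genes lie near those of all tested genes. Among these, Myc, a transcription factor that activates ribosome genes, stood at 8.31 against 1.03 TPM, and Eif4ebp1, an inhibitor of cap-dependent translation that mTOR phosphorylates, at 143 against 59.2 TPM.

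Genes of the mitochondrial ribosome were called in both directions, and a smaller share of them was called higher than of all tested genes. Of all tested genes, 50.8% were called higher in CAC than Con at week 8, or 25.9% higher and 25.8% lower after rescaling. Of 77 measured mitochondrial ribosomal protein genes, 18 were called higher and 16 lower in CAC than Con at week 8, with a median of -0.02, and after rescaling 2 higher and 51 lower, with -0.22. Mrpl52 rose by 0.74 and Mrpl4 fell by 0.39 on the log2 scale. Of 66 nuclear subunits of the respiratory chain, 23 were called higher and 8 lower (0 and 34 after rescaling), with Cox7a1, a muscle form of a cytochrome oxidase subunit, at 956 against 1570 TPM. In NCAC against Con at week 8 after rescaling, 4.3% of all tested genes were called higher. So were 25 of the 77 mitochondrial ribosomal protein genes and 35 of the 66 respiratory chain subunits, beside the 56 cytoplasmic members. The list medians were 0.16, 0.22 and 0.27.

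**Figure D5:**
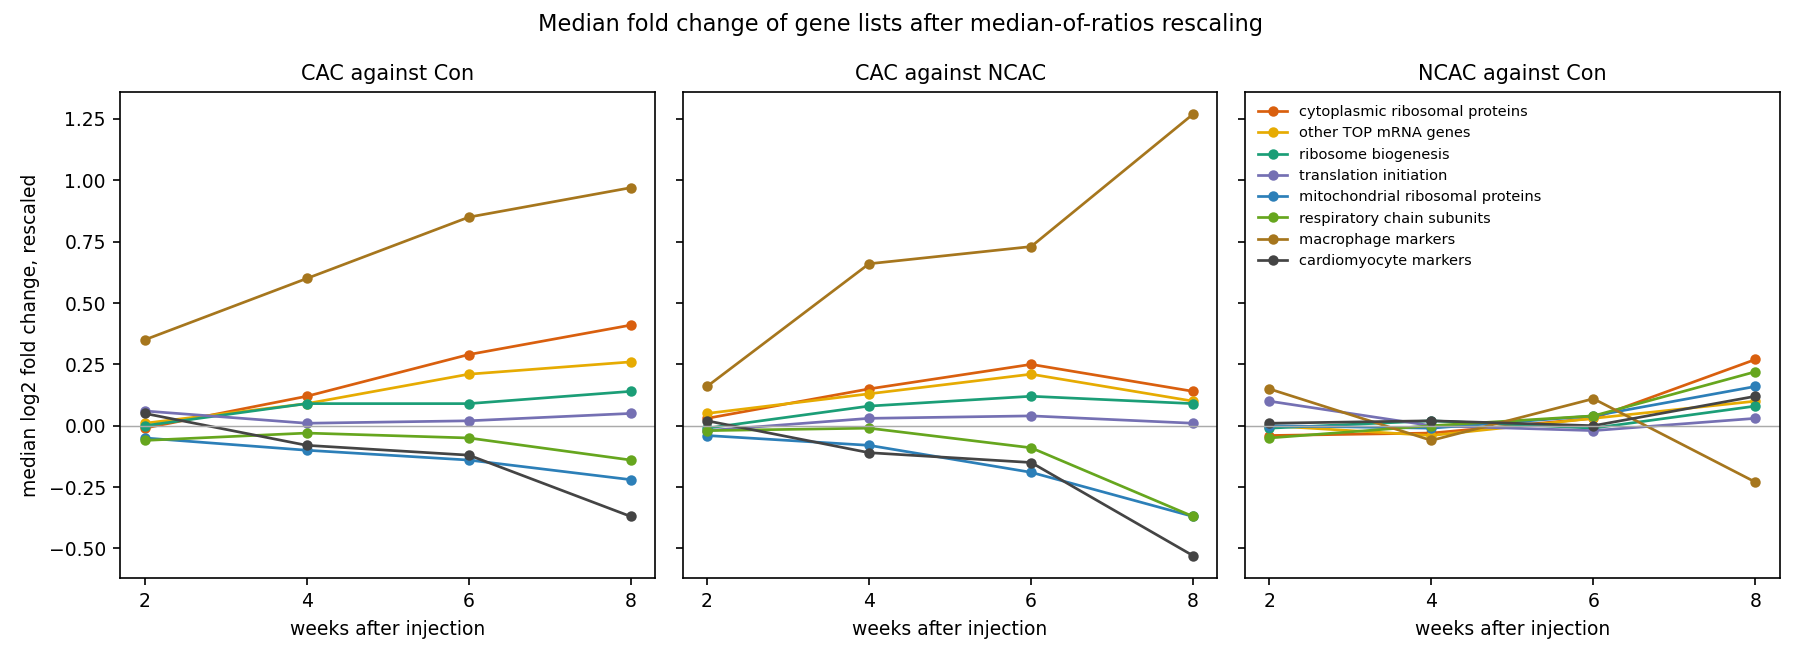
Median log2 fold change of each gene list (lines) at weeks 2, 4, 6 and 8 in the 3 comparisons, after median-of-ratios rescaling. The cytoplasmic ribosomal proteins rise to 0.41 in CAC against Con at week 8, the mitochondrial ribosomal proteins go to -0.22, and the macrophage markers lie above all other lists in both CAC panels.

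Markers of other cell types were read in the same libraries. Of all tested genes, 50.8% were called higher in CAC than Con at week 8 as deposited, and fewer were called lower, as given above. Of 18 macrophage and monocyte markers, 16 were called higher in CAC than Con at week 8 (16 after rescaling), with a median of 1.17, and their summed level was 539 to 1130 TPM in CAC, 168 to 335 TPM in NCAC and 252 to 362 TPM in Con. Mrc1 stood at 35.2 against 6.23 TPM and Cd163 at 25.6 against 3.35 TPM. The 6 measured of 11 neutrophil markers were all called higher, summing to 18.7 to 48.9 TPM in CAC and 7.04 to 22.4 TPM in Con, and the granule genes Ngp, Camp, Ltf and Mmp9 stayed under 1 TPM in every library. All 5 measured of 15 B and T cell markers were called lower, summing to 7.34 to 14.4 TPM in CAC and 14.0 to 27.1 TPM in Con, and the T cell genes Cd3d, Cd3e and Cd3g stayed under 1 TPM in every library. Of 14 cardiomyocyte markers, 1 was called higher and 8 lower, and of 10 fibroblast markers 4 were called higher and 1 lower, with Dcn at 934 against 365 TPM. Of 11 endothelial markers, 3 were called higher and 3 lower. The shares of fibroblast and endothelial markers called higher lie below that of all tested genes. The 5 measured of 7 erythroid markers were called in neither direction, with the summed level of CAC replicate 3 far above the rest, as given above. Of 4 measured melanocyte markers Mlana was called higher, at 4.81 against 0.174 TPM, Dct was called lower, and Tyr, Tyrp1 and Pmel stayed under 1 TPM in every library. The part of these cells in the ribosomal protein values was not tested. In NCAC against Con at week 8, where 0.486% of all tested genes were called higher, 0 of the 18 macrophage markers were called, with a median of -0.26.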

How the data were processed

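RNA of mouse hearts was measured in 62 libraries. Trizol was used for extraction and a stranded mRNA kit for the libraries, per the labels' protocols. The authors deposited TPM per gene symbol, and per the submitters' processing notes the build was mm10. The aligner, counting tool and annotation are not given in the sources used here, so gene models come from GENCODE M21. Read depth was not given. Low values fell within 0.05 of whole reads in 88.8% of cases (4951 genes), and 1 read was worth 0.871 to 1.2 on a relative scale in 60 libraries and more in 2, CAC week 2 replicates 2 and 3.

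Values were transformed as log2(TPM + 1), and a fold change is a difference of means on that scale, which understates changes of low genes. A gene was tested when 5 or more libraries had 1 TPM or more (12541). Means of 12 groups were fitted by limma-trend over 61 libraries (limma 3.58.1, R 4.3.3), with Benjamini-Hochberg adjustment within each of 15 comparisons and a threshold of 0.05. The rescaled fit divides by median-of-ratios factors over 14527 genes. Figures used Python 3.11.15 and matplotlib 3.10.9.

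Named at week 8 in both CAC comparisons were the 6 members with the highest and the 6 with the lowest fold change and a panel of 14. Elsewhere the called members were named where 5 or fewer, or else the 3 highest and 3 lowest, and from other lists the 3 smallest p. The values of 1 member are not reported here, though counts over the members hold it. Members, lists and rules were chosen with earlier results of these data known. Alternatives were a pseudocount of 0.1, other filters and scalings, all 62 libraries, a replicate block, leaving out each library, and fits on only the groups in a comparison. Added after seeing the data were members summed with their copies and rescaling without CAC week 8 replicate 3.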

Additional observations from a re-analysis of the deposited data

Results flagged for a closer look

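Among 105 groups of values looked at, 5 held a library far from the rest of its group, and chance gives about 1 in 20. In CAC at week 4, replicate 2 had 2.37% of TPM in the 75 genes, where the others had 1.94 to 2.05%. In CAC at week 8, replicate 3 had 4.07% of TPM without mitochondrially encoded genes, where the others had 5.09 to 5.86%. Rpl11 stood at 106 TPM in Con week 8 replicate 2, against 87.0 to 92.4 TPM in the others. Rps26 stood at 163 TPM in NCAC week 8 replicate 1, against 320 to 348 TPM, and at 0.293 TPM in Con week 8 replicate 3, against 258 to 341 TPM.

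The effect of CAC against Con differed between weeks 2 and 8, by a test of the difference itself, for 70 of the 75 genes (limma adjusted p under the threshold). Of the genes named in that comparison it was called for Rpl30 (1.03 on the log2 scale), Rpl39 (0.94) and Rps18 (0.82).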

How the results depend on the processing

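The direction and side of the threshold were the same in 2179 values of named genes under the alternatives, weaker in 62, stronger in 19 and reversed in 20, and the cause was not tested. Counts of members called at week 8 of CAC against Con stayed within 1.5 times of 74 under every alternative run, and a pseudocount of 0.1 or a filter of 5 TPM moved no count by more. Leaving out each library gave 1 to 32 members for CAC against Con at week 4, 8 to 49 for CAC against NCAC at week 4, 3 to 30 for NCAC against Con at week 8 and 0 to 1 for CAC against Con from week 6 to 8.

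For CAC against Con at week 4 (28), the count was 14 without a filter, 6 with median-of-ratios rescaling, 9 with rescaling without mitochondrially encoded and haemoglobin genes, 5 without mitochondrially encoded genes and members, 70 with all 62 libraries, 7 with copies summed and rescaling and 8 with rescaling and without CAC week 8 replicate 3. For CAC against NCAC at week 4 (44), the same scalings gave 18, 22 and 14, all 62 libraries gave 2, and the combined settings gave 20 and 22. At week 8 (71) rescaling gave 37, of which 2 lower, and 38 with copies summed. NCAC against Con at week 8 (13) had 56, 35 and 32 under the same scalings, 0 with all 62 libraries, 1 with these groups alone, and 61 and 59 under the combined settings. The share of all tested genes called higher in it also moved, from 0.486% to 4.3% with median-of-ratios rescaling. For the other settings of this section that share is not given. Their counts alone do not tell a change of the members from a change of all genes. The week 6 to 8 change of CAC against Con had 1 with rescaling without mitochondrially encoded and haemoglobin genes, and 3 with rescaling and without CAC week 8 replicate 3, which gave 1 for CAC against NCAC. The week 2 to 8 change had 43 with all 62 libraries. Without mitochondrially encoded genes the ratios of medians fell from 1.05 to 1.01 and from 1.52 to 1.22 for CAC against Con at weeks 2 and 6, and from 1.07 to 1.02 and from 1.47 to 1.23 for CAC against NCAC. The ratios fell at weeks 4 and 8 too. At week 8 the medians on that scale were 5.27% in CAC, 4.15% in NCAC and 3.82% in Con.

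Reversed for CAC against NCAC at week 8 by rescaling, with copies summed and rescaling, and with rescaling without CAC week 8 replicate 3 were Rpl29 (-0.06, -0.04 and -0.02) and Rps13 (-0.09 in each). Rplp2 had -0.14 under the first pair of settings, and Rps2 -0.19 under the first and -0.17 under the last. With copies summed, Rps26 had 0.76 (0.54 rescaled) for CAC against Con at week 8, 0.57 (0.29) for CAC against NCAC and 0.63 (0.52) for the week 2 to 8 change. With copies summed and rescaling, Rps2 had -0.05 at week 6 and -0.11 at week 8 of CAC against Con, and Rpl27 had 0.30 and Rps12 0.28 for NCAC against Con at week 8.

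The replicate numbers are shared between groups but did not pair the libraries: deviations of same-numbered libraries had a mean correlation of -0.005 over 319 pairs. With the replicate number as a block, 17 members were called for CAC against Con at week 4, 69 for CAC against NCAC at week 8 and 15 for NCAC against Con at week 8. Depth per library is known only on a relative scale, and the most alike pair of libraries in a group differed with a log2 SD of 0.214 over genes.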
